A study of Homo sapiens with 12 samples.

Results

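The 32 genes described here encode enzymes of cholesterol and fatty acid synthesis and proteins of the SREBP system that controls them. They were taken by gene symbol, and all 32 were listed in both deposited expression tables, which hold 55514 and 44389 genes and have 43805 symbols in common. By role, 19 belong to the sterol arm, 7 to the fatty acid arm, and 6 are regulators or carry sterol within the cell. SREBP transcription factors are made as precursors in the membrane of the endoplasmic reticulum. When sterol is scarce, SCAP escorts them to the Golgi, where they are cut, and the released part enters the nucleus; when sterol is plentiful, the INSIG proteins hold SCAP and its cargo back. The precursor encoded by SREBF2 is best known for driving sterol genes and the one encoded by SREBF1 for driving fatty acid genes, and T cells use both pathways to build membrane when they divide.

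The libraries came from Jurkat, an established human T cell leukaemia line grown in RPMI with serum, and the question set by the study design was what differs in these cells with and without ZNF683. ZNF683 encodes the zinc finger transcription factor Hobit. The first table holds 3 ZNF683 libraries, labelled as carrying ZNF683 under doxycycline induction, and 3 Mock libraries. The second table holds 3 Dox+ and 3 Dox- libraries, all titled Hobit and grown with or without doxycycline, which the labels give at 1 ug/uL. The labels do not say whether Mock cells received doxycycline or what promoter or vector was used. Nor do they say whether lines were clones or replicates were separate cultures. The p-values below therefore rest only on the spread between these libraries, which may be technical. That spread was shared over genes of similar level, and wholly so in the main doxycycline fit.

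Values are TPM, a transcript abundance corrected for transcript length and scaled to a fixed total per library, so 1 very abundant RNA pushes down the TPM of every other gene. ZNF683 itself, from the lowest to the highest library of a group, stood at 1.04, 1.17 and 1.76 TPM in ZNF683 libraries, against 0.681, 0.715 and 1.59 TPM in Mock libraries, and at 0.453, 0.571 and 0.774 TPM in Dox+ libraries, against 0.115, 0.239 and 0.451 TPM in Dox- libraries. The first pair of groups overlapped and the second was separated by a narrow margin. All 7 T cell markers checked, CD3D, CD3E, CD3G, CD2, CD7, CD28 and TAL1, were at 20.7 TPM or more in every library, and every myeloid marker stayed below 1 TPM; among B cell markers, CD79A was at 8.90 to 54.7 TPM and MS4A1 stayed below 1 TPM. The non-coding RNA AL135790.1 took 4.94% to 12.8% of TPM in 11 libraries and 50.7% in Dox- library 1. Heat shock transcripts stood apart in Dox- library 2, where HSPA6 was at 637 TPM, against 0.113 to 0.351 TPM in the other 5 libraries of that table. Values are therefore given as deposited and, where it matters, after median-of-ratios scaling, which divides each library by the median ratio of its genes to their geometric means; the divisor was 0.571 for Dox- library 1 and between 0.938 and 1.198 for the other 11.

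Corrected for transcript length, the genes spanned a wide range of levels. INSIG1, which holds SCAP in the endoplasmic reticulum, was the most abundant, with a median of 891 TPM over the 12 libraries (range 416 to 1073). FDFT1 (squalene synthase, 742 TPM) and FDPS (farnesyl diphosphate synthase, 668 TPM), which act at the branch from isoprenoid to sterol synthesis, came next. The ranges of these 3 genes overlapped over libraries. Within a library INSIG1 was the highest of the 3 except in Dox- library 2, where FDFT1 had 617 and INSIG1 528 scaled TPM. FDFT1 lay above FDPS except in ZNF683 library 2, by a narrow margin (789 against 793 scaled TPM). ACAT2, the thiolase that starts the sterol arm, had a median of 322 TPM, and the desaturases SCD and FADS2 had 290 and 270.0 TPM. At the low end stood the fatty acid genes ACACA (16.4 TPM) and ELOVL6 (9.30 TPM) and, last, the lanosterol demethylase CYP51A1 with 4.50 TPM. FASN, which builds palmitate, was also low at 20.9 TPM, below the desaturases SCD and FADS2. Together the 32 genes held between 0.495% and 0.599% of TPM in 10 libraries, and 0.257% and 0.419% in Dox- libraries 1 and 2.

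**Figure D1:**
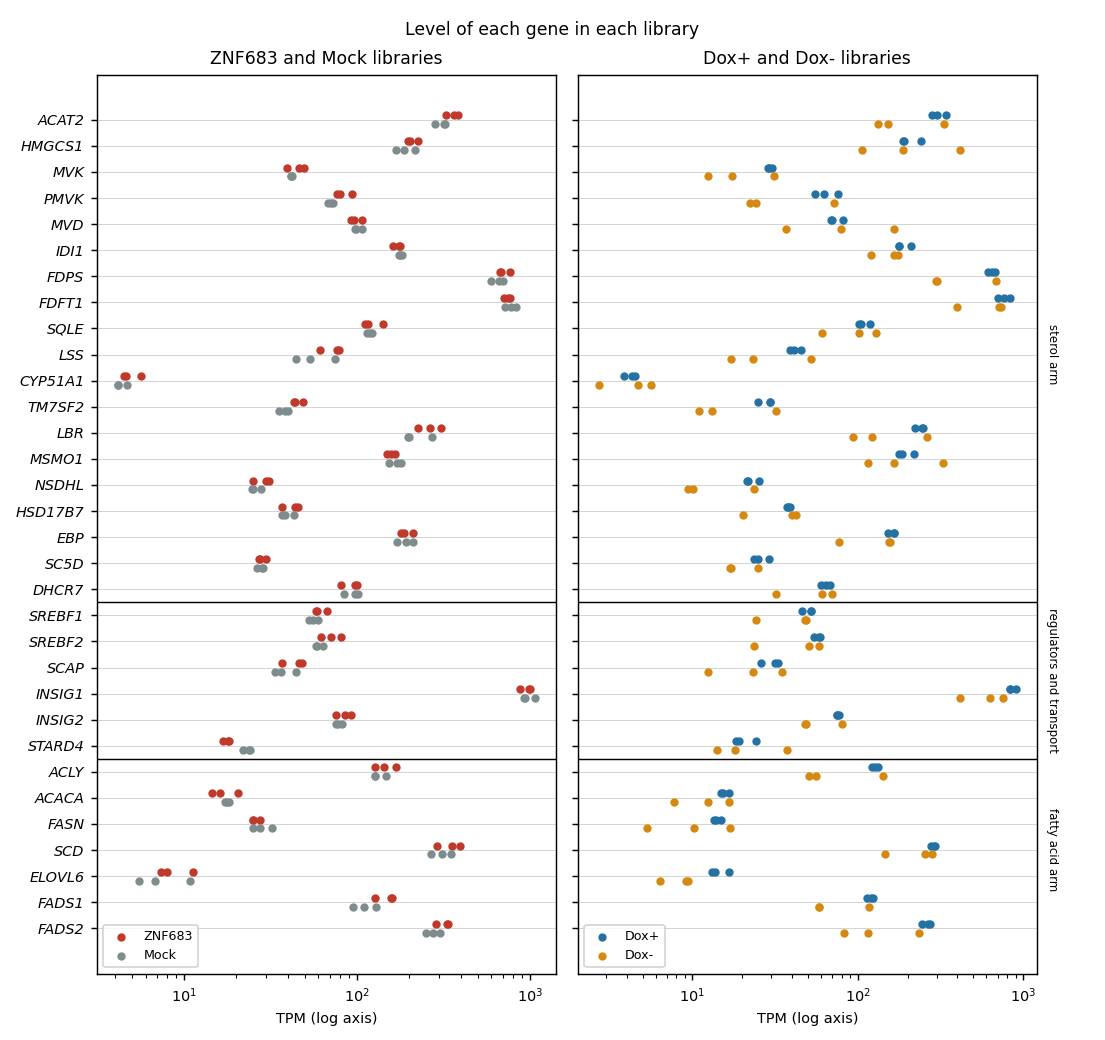
TPM as deposited (log axis) of each of the 32 genes, with 1 point per library; ZNF683 and Mock libraries are in the left panel and Dox+ and Dox- libraries in the right. INSIG1, FDFT1 and FDPS lie highest and CYP51A1 lowest in both tables, and for most genes the Dox- points spread most widely.

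In ZNF683 against Mock cells, none of the 32 genes passed the test (limma on log2(TPM + 1), Benjamini-Hochberg adjustment over 16588 genes, threshold 0.05), where 5 genes, or 0.0301% of those tested, did. At an unadjusted p under 0.05 there were 3 of 32 genes, against 13% of all genes. By estimate, 23 of the 32 were higher and 9 lower in ZNF683 cells. The median log2 change was 0.11, against 0.03 over all genes tested. That gap depended on the filter. With a mean of at least 5 TPM, the all-gene median was 0.082, and 19 of the 31 genes kept lay above it. The sterol arm then lay 0.013 above all genes, against 0.074 in the main fit. In the main fit the medians were 0.10 in the sterol arm, 0.11 among regulators and transport and 0.16 in the fatty acid arm. Single libraries moved them: the fatty acid arm had 0.056 without ZNF683 library 1 and 0.084 without Mock library 2, the sterol arm 0.065 and 0.041 without these and 0.047 without ZNF683 library 2, and regulators and transport 0.041 without ZNF683 library 2. Without ZNF683 library 3 the sterol arm had 0.17, regulators and transport 0.16 and the fatty acid arm 0.22. On simulated data of the same size, with noise drawn for each gene alone, this fit called 77% of genes changed by 1 on the log2 scale. Every estimate here was smaller than 1.

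The smallest p belonged to STARD4, a carrier that moves cholesterol between membranes (chr5:111496033-111512590, minus strand; positions here are from GENCODE 29 on GRCh38, matched by symbol). STARD4 had 18.1, 16.8 and 18.3 TPM in ZNF683 libraries, against 23.8, 24.0 and 21.9 TPM in Mock libraries. The groups did not overlap, and every ZNF683 library lay below every Mock library as deposited and after scaling. The log2 change was -0.37 ± 0.10 (SE), with a limma adjusted p of 0.283 over all genes. Its antisense neighbour STARD4-AS1, whose span overlaps it, averaged 8.12 TPM in this table. With no strand stated for the counting, reads from any stretch that the pair shares are uncertain.

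FADS1, the delta-5 desaturase of polyunsaturated fatty acids, had 157, 159 and 127 TPM in ZNF683 libraries, against 110, 95.3 and 129 TPM in Mock libraries. As deposited, ZNF683 library 3 lay just inside the Mock range; after scaling the groups separated, with 161, 164 and 127 against 117, 88.1 and 124 scaled TPM. The log2 change was 0.41 ± 0.14 (SE, limma adjusted p = 0.340). FADS2, the delta-6 desaturase beside it on chr11, averaged 319 ± 26.8 TPM in ZNF683 and 277 ± 26.0 TPM in Mock libraries (SD, n = 3 each), and its groups overlapped. FADS1 (chr11:61799625-61829318) and FADS2 (chr11:61792980-61867354) lie on opposite strands and overlap, as FADS2 does with FEN1, so reads from shared stretches are uncertain.

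In the sterol arm, TM7SF2, a sterol delta-14 reductase, had 43.7, 48.7 and 43.5 TPM in ZNF683 libraries, against 38.4, 35.4 and 40.1 TPM in Mock libraries. PMVK, the phosphomevalonate kinase, had 77.0, 93.5 and 80.1 TPM in ZNF683 libraries, against 67.7, 70.6 and 73.2 TPM in Mock libraries. ACAT2 had 364, 385 and 328 TPM in ZNF683 libraries, against 319, 285 and 325 TPM in Mock libraries. For all 3 the ZNF683 libraries lay above the Mock libraries, narrowly for ACAT2, whose groups overlapped after scaling. The log2 changes were 0.25 ± 0.10 for TM7SF2, 0.24 ± 0.11 for PMVK and 0.21 ± 0.11 for ACAT2 (SE; limma adjusted p = 0.365, 0.393 and 0.432). TM7SF2 overlaps VPS51 on the same strand and ACAT2 overlaps TCP1 on the other. HMGCS1, whose enzyme makes HMG-CoA near the start of the pathway, had 226, 204 and 198 TPM in ZNF683 libraries, against 218, 169 and 188 TPM in Mock libraries, and the groups overlapped.

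Counted as deposited, 3 genes (ACAT2, PMVK, TM7SF2) had all ZNF683 libraries above all Mock libraries and 1 (STARD4) below, where 8.71% and 8.51% of all genes did so. After scaling, 5 genes lay above (PMVK, CYP51A1, TM7SF2, SREBF1, FADS1) and STARD4 below, where 11.8% and 7.24% of all genes did. These counts of 3 and 5 of 32 are near the share among all genes. Mock library 2 had the lowest scaled value of its table for 26 of the 32 genes (81.2%), against 36.8% of all genes. Without it, 17 of the 32 estimates lay above the all-gene median, against 21 with it, the median of the sterol arm was -0.01 relative to all genes, against 0.07, and no gene passed. Beside these values, the heat shock gene HSPA6 was at 0.399 to 0.618 TPM in ZNF683 libraries, against 4.06 to 6.85 TPM in Mock libraries (log2 change -2.11 ± 0.18, limma adjusted p = 0.0105); its part in these results was not tested.

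**Figure D2:**
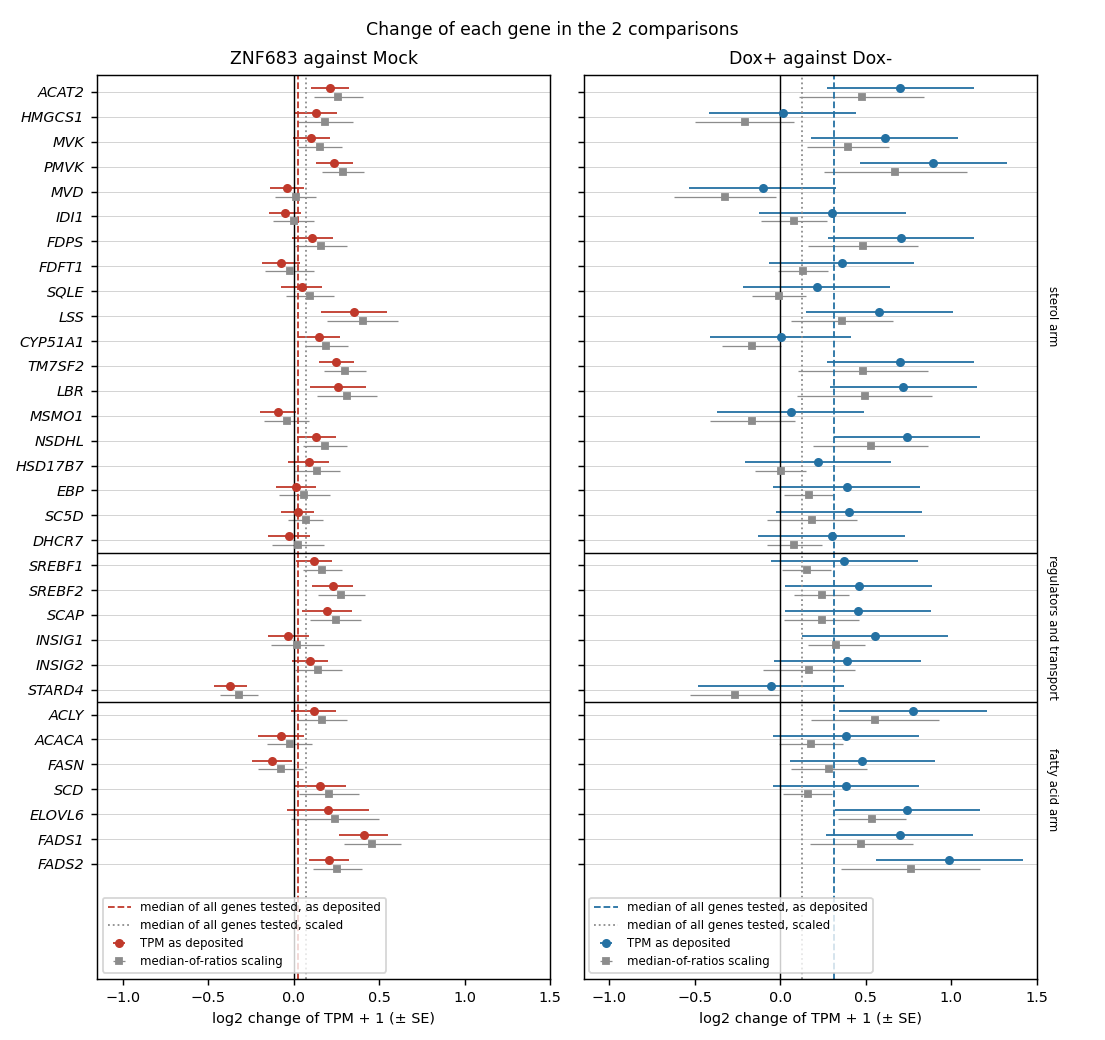
Estimated log2 change of TPM + 1 (± SE, limma, 3 libraries a group) of each gene, ZNF683 against Mock on the left and Dox+ against Dox- on the right; circles are values as deposited, squares are scaled values, and dashed and dotted lines mark the medians of all genes. STARD4 lies at -0.37 on the left, FADS2 at 0.99 on the right, the SE is about 0.43 for the values as deposited on the right, and no gene passed in either panel.

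Among the regulators, SREBF1 had 58.5, 67.0 and 58.1 TPM in ZNF683 libraries, against 53.1, 56.0 and 59.6 TPM in Mock libraries. SREBF2 had 81.3, 70.4 and 61.7 TPM in ZNF683 libraries, against 58.8, 58.1 and 64.0 TPM in Mock libraries. INSIG1 had 994, 1007 and 878 TPM in ZNF683 libraries, against 1073, 944 and 923 TPM in Mock libraries. As deposited, the groups overlapped for all 3 genes, and ZNF683 library 1 was the high one for SREBF2. The log2 changes were 0.12 ± 0.10 for SREBF1, 0.23 ± 0.12 for SREBF2 and -0.03 ± 0.12 for INSIG1 (SE; limma adjusted p = 0.595, 0.435 and 0.922). SCAP averaged 43.8 ± 6.11 TPM in ZNF683 and 38.2 ± 5.70 TPM in Mock libraries (SD, n = 3 each), and INSIG2, the isoform of INSIG1 that is not held to be an SREBP target, averaged 84.3 ± 8.12 and 78.7 ± 3.45 TPM. Neither group pair separated.

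In the fatty acid arm, FASN had 27.7, 24.98 and 25.04 TPM in ZNF683 libraries, against 27.7, 25.3 and 32.4 TPM in Mock libraries. SCD, the delta-9 desaturase that makes oleate, had 394, 353 and 291 TPM in ZNF683 libraries, against 311, 269 and 349 TPM in Mock libraries. Both pairs of groups overlapped, with log2 changes of -0.13 ± 0.12 and 0.16 ± 0.15 (SE; limma adjusted p = 0.624 and 0.628). Read as ratios within a library, which no scaling can move, FADS2 to FASN was 11.98, 13.5 and 11.5 in ZNF683 libraries, against 9.99, 9.93 and 9.36 in Mock libraries. SCD to FASN was 14.2, 14.1 and 11.6 in ZNF683 libraries, against 11.2, 10.7 and 10.8 in Mock libraries, and INSIG1 to INSIG2 was 11.7, 10.9 and 11.6 in ZNF683 libraries, against 13.01, 12.4 and 11.9 in Mock libraries. All 3 ratios separated the groups. They were chosen after the values were seen, as were the other 3 ratios examined, so they are given with no test; 3 against 3 libraries cannot reach an exact permutation p below 0.1. In the doxycycline table none of the 3 separated the groups; FADS2 to FASN was 18.3 to 19.2 in Dox+ libraries and 8.16 to 21.8 in Dox- libraries.

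Of the remaining sterol enzymes, the mevalonate kinase MVK, FDPS, the oxidosqualene cyclase LSS, the lamin B receptor and sterol reductase LBR, the lanosterol demethylase CYP51A1 and the decarboxylating dehydrogenase NSDHL had positive estimates between 0.10 and 0.35. The diphosphomevalonate decarboxylase MVD, the isomerase IDI1, FDFT1, the C-4 methyl oxidase MSMO1 and the final reductase DHCR7 had negative estimates between -0.09 and -0.02. Squalene epoxidase (SQLE) and the late-acting HSD17B7, EBP and SC5D lay between 0.01 and 0.09. In the fatty acid arm, the estimates were 0.12 for ACLY and 0.20 for ELOVL6 and -0.07 for ACACA, the carboxylase that commits acetyl-CoA to fatty acid synthesis. None of these was larger than 2 of its standard errors.

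In Dox+ against Dox- cells, none of the 32 genes passed either, where 60 of 15148 genes, or 0.396%, did; 41 of those were lower in Dox+. At an unadjusted p under 0.05 there were 2 of 32 genes (FADS2 and PMVK), against 6.34% of all genes. By estimate 30 of the 32 were higher in Dox+ cells, with a median log2 change of 0.43, but all genes tested shifted by 0.32, and after scaling by 0.13. Of the 32, 23 lay above the all-gene median, but with a mean of at least 5 TPM only 17 of 31 did. The medians were 0.39 in the sterol arm, 0.42 among regulators and transport and 0.70 in the fatty acid arm, in which all 7 genes were above the all-gene median. Without Dox- library 1 the medians were 0.14, 0.071 and 0.53, with 0.04 over all genes, and without Dox- library 3 that of regulators and transport was 0.67. Relative to all genes, the fatty acid median was 0.38, and 0.12 without Dox- library 2. In this table the fit had little reach in simulation, where it called 1% of genes changed by 1 and 31% of genes changed by 2 on the log2 scale. The simulated noise was drawn for each gene alone, without shifts common to a library. The reach in the real libraries may therefore differ.

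The spread came from the Dox- group. In this fit each SE and p rested on the spread of genes of similar level, not on that of the gene named. FADS2 had 273, 267 and 246 TPM in Dox+ libraries, against 116, 83.0 and 236 TPM in Dox- libraries. Every Dox+ library lay above every Dox- library, with Dox- library 3 close below the nearest. Its log2 change was 0.99 ± 0.43 (SE, limma adjusted p = 0.715). PMVK had 55.2, 62.1 and 76.0 TPM in Dox+ libraries, against 24.2, 22.3 and 71.3 TPM in Dox- libraries, and here Dox- library 3 lay inside the Dox+ range. Its log2 change was 0.89 ± 0.43 (SE, limma adjusted p = 0.737).

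The same shape recurred in the other genes of smallest p. ACLY, the citrate lyase that supplies acetyl-CoA to both arms, had 122.7, 128 and 133 TPM in Dox+ libraries, against 55.9, 50.9 and 143 TPM in Dox- libraries. NSDHL had 21.3, 21.8 and 25.2 TPM in Dox+ libraries, against 10.1, 9.46 and 23.6 TPM in Dox- libraries. LBR had 221, 248 and 246 TPM in Dox+ libraries, against 122, 94.0 and 260.3 TPM in Dox- libraries. In all 3, Dox- libraries 1 and 2 were low and Dox- library 3 matched or exceeded a Dox+ library. The log2 changes were 0.78, 0.74 and 0.72, each ± 0.43 (SE; limma adjusted p = 0.737 for each).

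ELOVL6, which lengthens palmitate (chr4:110045846-110199199, minus strand), differed from these genes in Dox- library 3. It had 13.1, 16.6 and 13.6 TPM in Dox+ libraries, against 6.33, 9.17 and 9.44 TPM in Dox- libraries. As deposited all 3 Dox- libraries were low, library 3 included, though Dox- library 1 was low for all 32 genes. After scaling the values were 11.7, 15.1 and 13.3 in Dox+ libraries and 11.1, 7.65 and 8.17 in Dox- libraries. The groups stayed apart, by a narrow margin for Dox- library 1. The log2 change was 0.74 ± 0.42 (SE, limma adjusted p = 0.737), and over 15 alternatives it ranged from 0.44 to 0.83, with limma adjusted p between 0.0664 and 0.995. In the other table ELOVL6 averaged 8.86 ± 2.10 TPM in ZNF683 and 7.74 ± 2.81 TPM in Mock libraries (SD, n = 3 each), with overlapping groups.

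**Figure D3:**
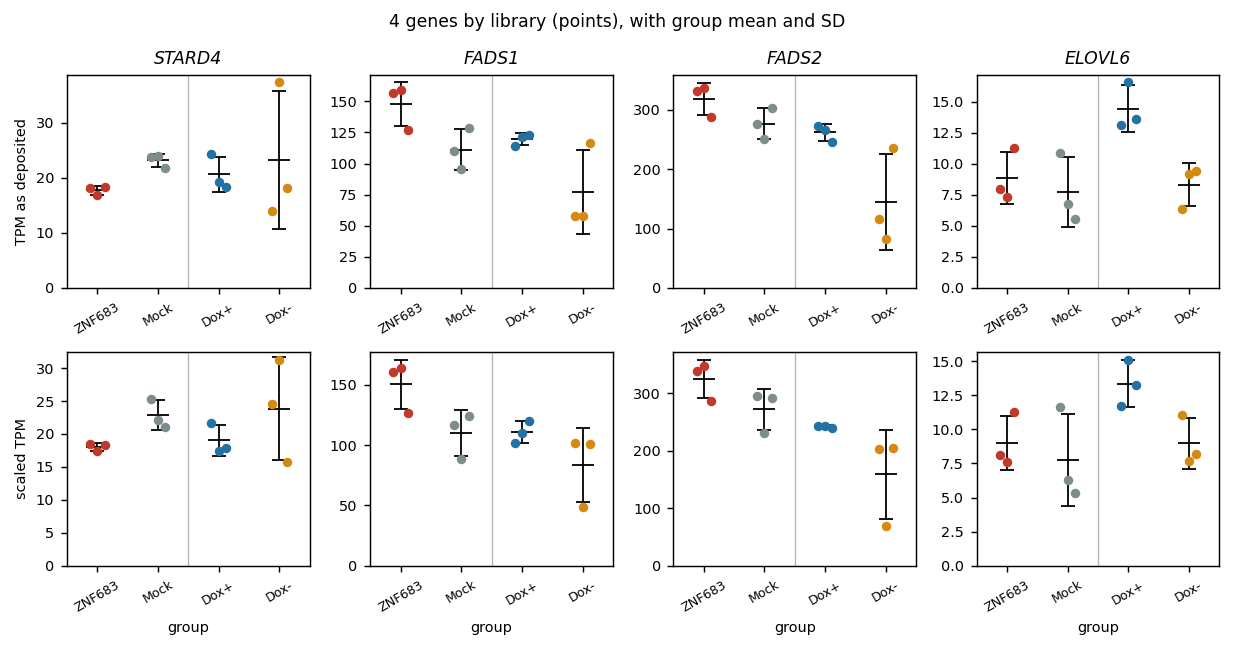
TPM of STARD4, FADS1, FADS2 and ELOVL6 in each library, as deposited (top) and scaled (bottom), with group mean and SD (n = 3) as bars; the y axes start at 0. STARD4 is lower in all 3 ZNF683 libraries than in Mock, FADS1 separates ZNF683 from Mock after scaling, and ELOVL6 and FADS2 are higher in all Dox+ libraries than in Dox- libraries in both rows.

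Among regulators, INSIG1 had 904, 827 and 837 TPM in Dox+ libraries, against 416, 633 and 750.4 TPM in Dox- libraries. The groups did not overlap as deposited or scaled, and the log2 change was 0.55 ± 0.42 (SE, limma adjusted p = 0.737). SREBF1 had 52.5, 52.1 and 45.8 TPM in Dox+ libraries, against 24.1, 48.6 and 48.1 TPM in Dox- libraries. SREBF2 had 54.6, 58.8 and 58.2 TPM in Dox+ libraries, against 23.5, 51.0 and 58.4 TPM in Dox- libraries. Dox- library 1 was the low one for both, and its deposited values lay below all 3 Dox+ libraries for all 32 genes; scaled, SREBF1 had 46.8, 47.4 and 44.6 in Dox+ libraries and 42.3, 40.6 and 41.6 in Dox- libraries, which no longer overlapped. The log2 changes as deposited were 0.37 ± 0.43 and 0.46 ± 0.43 (SE; limma adjusted p = 0.763 and 0.738).

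FASN had 14.8, 13.9 and 13.5 TPM in Dox+ libraries, against 5.32, 10.2 and 16.8 TPM in Dox- libraries, and SCD had 288, 293 and 276 TPM, against 146, 254 and 280.2 TPM. Both overlapped through Dox- library 3. After scaling SCD separated, with 257, 267 and 268 in Dox+ libraries and 256, 212 and 243 in Dox- libraries by a narrow margin. FADS1 averaged 119.5 ± 4.73 TPM in Dox+ and 77.5 ± 33.7 TPM in Dox- libraries (SD, n = 3 each). Its groups overlapped as deposited and narrowly separated after scaling, at 102, 110.2 and 119.9 in Dox+ libraries and 101.7, 48.4 and 100.8 in Dox- libraries.

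Among the other genes, ACAT2, MVK, FDPS, LSS, TM7SF2, SC5D, SCAP, INSIG2 and ACACA were lower in Dox- libraries 1 and 2 than in every Dox+ library, as deposited, while Dox- library 3 was not; their estimates lay between 0.39 and 0.71. For FDFT1, SQLE, HSD17B7, EBP and DHCR7 only Dox- library 1 lay below every Dox+ library, with estimates between 0.21 and 0.39. IDI1 had 209.7, 178.4 and 178.03 TPM in Dox+ libraries, against 120.3, 176 and 166 TPM in Dox- libraries, and the groups lay close together but did not overlap (log2 change 0.30). CYP51A1 and MSMO1 had estimates of 0.0037 and 0.06, and STARD4 and MVD were the pair with negative estimates, -0.05 and -0.10.

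Counted as deposited, 4 of 32 genes (IDI1, INSIG1, ELOVL6, FADS2) had all Dox+ libraries above all Dox- libraries, where 7.91% of all genes did, and none lay below, where 0.891% did. After scaling there were 7 (EBP, SREBF1, INSIG1, SCD, ELOVL6, FADS1, FADS2), 4 of them among the 7 fatty acid genes, where 9.34% of all genes lay above, and again none below, where 3.72% did. The genes of an arm share their libraries, and the count was not tested. SREBF1 and FADS1 were the 2 genes whose scaled groups separated upward in both comparisons; as deposited no gene did.

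The calls turned on Dox- library 3. Without it, 11 of the 32 genes passed, all higher in Dox+: MVK, ACAT2, LBR, NSDHL, TM7SF2, LSS, FDPS and PMVK of the sterol arm and ACLY, FADS2 and FADS1 of the fatty acid arm. The estimates ran from 0.96 for MVK to 1.42 for PMVK, with limma adjusted p between 0.0342 and 0.0392. In that setting 2754 genes, or 18.2% of those tested, were called higher, and the Dox- group was made up of library 1, with AL135790.1 at 50.7% of TPM, and library 2, with the heat shock transcripts. With Dox- libraries 1 and 2 left out instead, no gene passed, 14 of 32 estimates were positive and the all-gene median was -0.07. In that fit the lone Dox- library is assumed to vary like the Dox+ group.

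The difference between the 2 effects, fitted over 12 libraries, called none of the 32 genes and 2 of 14468 genes, or 0.0138% (limma; lowest adjusted p among the 32 genes, 0.876), and 0 of the 32 had an unadjusted p under 0.05. Without Dox- library 3 it called 10 of the 32, where 17.7% of all genes were called. With all libraries in, none of the 32 genes was shown to differ between the 2 comparisons.

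Dox- library 2 stood apart over all genes, and not only in the sterol arm. Its correlation with the other 5 libraries of its table, on log2(TPM + 1), was 0.954 to 0.961. Among those 5 it was 0.987 to 0.994. HMGCS1, which condenses acetyl-CoA and acetoacetyl-CoA (chr5:43289395-43313512, minus strand), had 241, 189.5 and 187 TPM in Dox+ libraries, against 107, 412 and 188 TPM in Dox- libraries. Library 2 held the highest HMGCS1 value of all 12, and the other 5 of its table lay between 107 and 241 TPM. The log2 change was 0.02 ± 0.43 (SE, limma adjusted p = 0.991) and turned to -0.21 after scaling.

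Scaled, library 2 lay above the other 5 libraries of its table for 5 of the 32 genes: MVD (139, against 63.7 to 73.0), HMGCS1 (344, against 163 to 215), MSMO1 (274, against 144 to 203), STARD4 (31.2, against 15.7 to 24.6) and, barely, SQLE (107.5, against 88.1 to 107). It lay below them for 24. Over all genes it lay above for 25.3% and below for 52.2%, against 15.6% and 75% of the 32, which therefore rose less often than genes at large. Past a margin of 1.5 times there were 2 genes above (HMGCS1, MVD) and 12 below, where 11.4% and 27.0% of all genes were. The 12 included PMVK (18.6, against 42.4 to 73.9), whose enzyme acts between those of HMGCS1 and MVD, FDPS (250.5, against 519 to 656), LBR (78.4, against 197 to 239) and FADS2 (69.3, against 203 to 244). No fatty acid gene lay above, and every one lay below the other 5 libraries. The ratio of HMGCS1 to FDPS, which no scaling can move, reached 1.37 there and lay between 0.266 and 0.372 in each of the 11 others. The sum of the sterol arm over that of the fatty acid arm was 5.95 in it and 3.20 to 4.14 elsewhere.

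**Figure D4:**
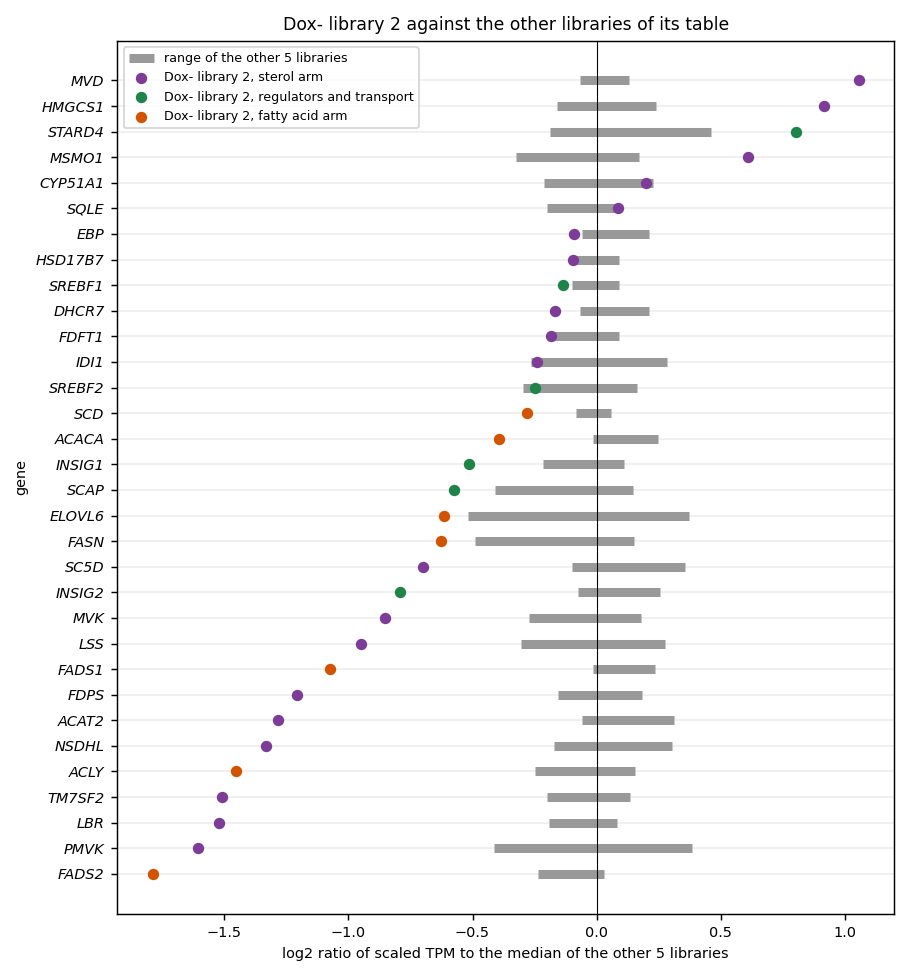
Scaled TPM of each gene in Dox- library 2 as a log2 ratio to the median of the other 5 libraries of its table (points, coloured by arm), beside the range of those 5 (grey bars). MVD at 1.06, HMGCS1 at 0.92, STARD4 at 0.80 and MSMO1 at 0.61 lie clear above the bars, while FADS2 at -1.79 and PMVK at -1.61 lie farthest below.

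Other transcripts moved in the same library. Beside HSPA6 at 637 TPM, DNAJB1 was at 2907 TPM, against 78.5 to 266 TPM in the other 5, and the integrated stress response gene DDIT3 was at 171 TPM, against 12.5 to 22.1 TPM. The hypoxia-linked gene AK4 was at 40.7 TPM there, and its 3 Dox+ values of 1.85 to 2.93 TPM lay below all 3 Dox- values of 7.33 to 40.7 TPM. Its log2 change was -2.12 ± 0.42 (SE, limma adjusted p = 0.000425). That call did not hold after scaling, where the estimate was -2.30 and the 1 gene called was higher in Dox+. No gene passed without Dox- library 1, or with AL135790.1 left out. The SE was set by the spread of genes of similar level, not by that of AK4 itself. The fibroblast marker COL1A1 was at 17.0 TPM in library 2, against 0.312 to 1.12 TPM in the other 5, while COL1A2 and PDGFRB stayed below 1 TPM. As deposited, the T cell markers summed to 2607 to 2828 TPM in Dox+ libraries and to 987 to 2228 TPM in Dox- libraries. These sums were not scaled, and the Dox- group includes library 1, where AL135790.1 took 50.7% of TPM. The part of any of these in the sterol and fatty acid values was not tested. In bulk RNA, fewer cells of a kind and less RNA per cell cannot be told apart.

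Promoter stretches are printed for the 4 genes that stood clear above in Dox- library 2. Each was cut to span its NF-Y boxes, so the motif they share carries no weight as evidence. SQLE, which lay barely above, had no window. In the RefSeq promoter table (GRCh38.p14; 250 bases before to 50 after each start), 28 of the 32 genes had a window, and the NF-Y box CCAAT, read on both strands, was in the windows of 20 of them (71.4%), against 39.7% of all genes. These stretches, chosen after the values were seen, run from the first to the last box with short flanks, 5′ to 3′ on the gene's strand, with each box in capitals (ATTGG is CCAAT on the other strand). They lie at chr5:43313488-43313587 (HMGCS1, minus strand), chr16:88663152-88663270 (MVD, minus strand), chr4:165327464-165327659 (MSMO1, plus strand) and chr5:111512641-111512716 (STARD4, minus strand).
HMGCS1: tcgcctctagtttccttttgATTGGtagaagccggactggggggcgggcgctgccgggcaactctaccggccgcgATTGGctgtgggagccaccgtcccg
MVD: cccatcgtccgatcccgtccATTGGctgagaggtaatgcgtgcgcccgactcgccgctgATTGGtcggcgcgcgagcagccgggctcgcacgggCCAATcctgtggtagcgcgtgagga
MSMO1: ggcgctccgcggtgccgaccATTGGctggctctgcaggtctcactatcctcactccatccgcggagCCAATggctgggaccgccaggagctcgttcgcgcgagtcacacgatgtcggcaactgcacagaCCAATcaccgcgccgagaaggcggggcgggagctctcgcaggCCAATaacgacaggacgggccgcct
STARD4: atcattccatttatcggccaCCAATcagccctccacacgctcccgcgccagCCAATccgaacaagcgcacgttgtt
The boxes number 2 in HMGCS1 (0 in its other window, chr5:43313132-43313431), 3 in MVD, 4 in MSMO1 and 2 in STARD4. They do not mark these genes off from genes that were low in the library: the FDPS window holds 3, the NSDHL window 5 and the MVK window 5.

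A sterol element written TCACNCCAC, the kind of site that SREBPs bind, was found on either strand in the window of 1 of the 28 genes, SREBF2 (3.57%, against 1.39% of all genes). The stretch around it, at chr22:41832912-41833040 (plus strand), is printed because it is the 1 member window that holds the letters; the element, in capitals, starts 133 bases before the start site.
SREBF2: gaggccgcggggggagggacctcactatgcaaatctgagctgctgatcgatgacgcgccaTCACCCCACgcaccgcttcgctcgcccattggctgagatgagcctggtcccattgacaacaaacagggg
An NF-Y box also stands in this stretch, read on the other strand as attgg. The GC box GGGCGG was in the windows of 26 of the 28 genes (92.9%, against 48.3% of all genes) and the E-box CACGTG in 4 (14.3%, against 8.77%). A match is a string of letters and not a site shown to be bound, and other forms of each motif were not searched.

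**Figure D5:**
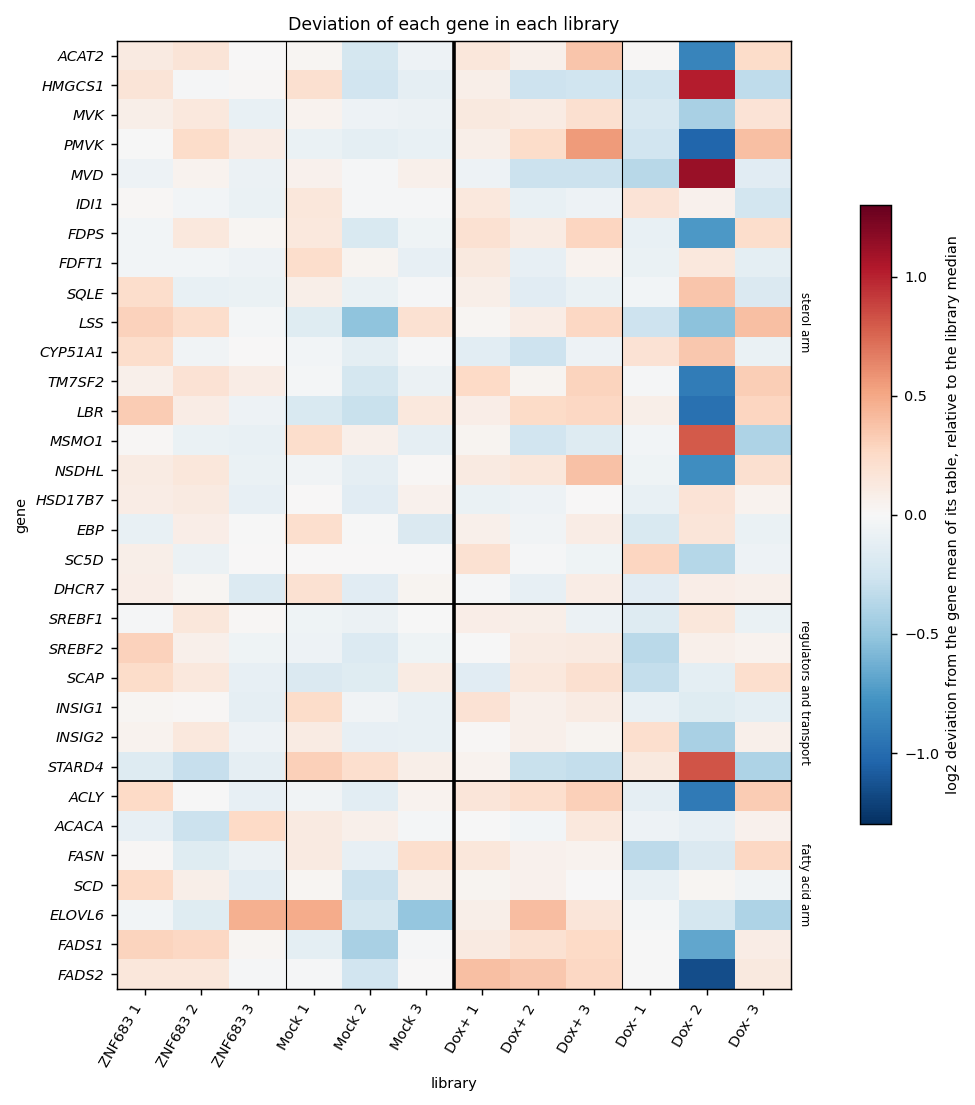
Log2 deviation of each gene in each library from its mean over the 6 libraries of its table, after taking away the library's median over all genes; rows are ordered by arm and a thick line parts the tables. Dox- library 2 holds the deepest colours, with HMGCS1, MVD, MSMO1 and STARD4 up and PMVK, LBR, ACLY and FADS2 down, while Mock library 2 is pale blue over most of its column.

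Outside the 32 genes, 46 further genes of the pathway were looked up in 4 lists covering the isoprenoid branches, SREBP processing, sterol uptake and efflux, and fatty acid supply. In each comparison 44 were tested and none passed. An unadjusted p under 0.05 was found for 4 of them in ZNF683 against Mock, where 13% of all genes had one. In Dox+ against Dox- it was found for 2, where 6.34% of all genes had one. In ZNF683 against Mock the smallest p was that of FNTA, a protein prenyltransferase subunit, with 49.5, 75.3 and 64.5 TPM in ZNF683 libraries, against 40.2, 36.7 and 47.8 TPM in Mock libraries (log2 change 0.58 ± 0.17, limma adjusted p = 0.297). The groups did not overlap, where 8.71% of all genes had every ZNF683 library above every Mock library. PDSS1 (0.40), MBTPS2 (0.40), the protease that completes SREBP release, and MYLIP (0.33) followed, with adjusted p between 0.344 and 0.382. In Dox+ against Dox-, the sterol sensor NR1H2 averaged 39.7 ± 1.05 TPM in Dox+ and 21.1 ± 15.8 TPM in Dox- libraries (SD, n = 3 each), with a log2 change of 1.10 and a limma adjusted p of 0.547. The lipoprotein receptor VLDLR was the only one of the 4 smallest p values with a negative estimate, with a mean of 13.6 ± 5.73 TPM in Dox+ and 24.9 ± 9.13 TPM in Dox- libraries (SD, n = 3 each). Its log2 change was -0.84 ± 0.43 (SE, limma adjusted p = 0.737), and LPCAT3 had an estimate of 0.77.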

How the data were processed

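The values are TPM as deposited by the authors in 2 tables, 1 column per library; kallisto 0.46.0 and DESeq2 1.22.2 are named, with no role, per the submitters' processing notes. Genome build and transcript set are not given in the sources used here. Libraries were prepared with a NEBNext low-input kit, per the labels' protocols. TPM keeps no depth, so no counting interval or count model was used.

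Titles and genotype labels gave the groups. The test was limma 3.58.1 (R 4.3.3), run on log2(TPM + 1) of the genes whose 6 libraries averaged 1 TPM or more, with a mean-variance trend, two-sided, adjusted by Benjamini-Hochberg over all genes tested; this scale understates the change of low genes. Each table was fitted alone. In the doxycycline table the prior degrees of freedom were infinite, so each gene's spread was set by that of genes of its level. The difference between the 2 effects was a contrast over 12 libraries. Alternatives were other scaling, pseudocount, filters, robust moderation, a replicate block and leaving out libraries. The fits were tested on simulated data, with noise drawn for each gene alone and no shift common to a library. Positions come from GENCODE 29 (GRCh38) and promoters from RefSeq (GRCh38.p14). Values in every library were given for the 6 genes of smallest p in each comparison, for SREBF1, SREBF2, INSIG1, HMGCS1, FASN and SCD, and for genes whose groups separated in both comparisons. The 32 genes and all lists were chosen with earlier results of these data known.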

Additional observations from a re-analysis of the deposited data

How the results depend on the processing

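None of the 32 genes passed in ZNF683 against Mock under any of the 12 alternatives run, and in Dox+ against Dox- the count left 0 under 1 of 15, the fit without Dox- library 3 (11 genes). The difference between the 2 effects called 0 to 10 of the 32 genes as single libraries were left out, the 10 without that same library. The counts over all genes moved more. In ZNF683 against Mock, 5 genes passed, against 3 with a pseudocount of 0.1, 0 with no filter on low values, 0 with a mean of at least 5 TPM, 8 with robust empirical Bayes, and 0 to 49 as single libraries were left out. In Dox+ against Dox-, 60 genes passed, against 1 after median-of-ratios scaling, 0 with no filter, 15 with a mean of at least 5 TPM, 23 with robust empirical Bayes, 0 with AL135790.1 left out and the rest rescaled, 0 with Dox- libraries 1 and 2 left out, and 0 to 2788 as single libraries were left out. The cause of these shifts was not tested. With the replicate number as a block, 0 and 34 genes passed in the 2 comparisons and 60 in the difference, and 0 of the 32 genes in any. Deviations of same-numbered libraries had correlations of -0.21, 0.07 and -0.25, and of 0.08, 0.05 and 0.36. The same number was the best match for number 2 in the first table and for numbers 2 and 3 in the second. Whether the numbers mark pairs is unresolved, and the main fits did not use them.

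Arm medians are given relative to the median of all genes. In ZNF683 against Mock, that of the sterol arm ranged from -0.012 to 0.13 and that of the fatty acid arm from 0.032 to 0.18 as single libraries were left out. Under a filter of at least 5 TPM on the mean, these 2 arms had 0.013 and 0.073. In Dox+ against Dox- with no filter, where the all-gene median was 0.010, the medians were 0.38 for the sterol arm, 0.41 for regulators and transport and 0.69 for the fatty acid arm. With a mean of at least 5 TPM, the sterol arm had -0.0015, regulators and transport 0.025 and the fatty acid arm 0.30. With Dox- libraries 1 and 2 left out, the sterol arm had -0.024 and the fatty acid arm 0.094. As single libraries were left out, regulators and transport ranged from 0.026 to 0.17 and the fatty acid arm from 0.12 to 0.49. An alternative chosen after seeing the data, scaling together with leaving out Dox- library 2, called 1 gene and gave the fatty acid arm 0.087.

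None of the 32 genes passed with all libraries in, so no gene called in the main fits could change sign. In Dox+ against Dox-, 11 genes passed without Dox- library 3. Of these, ACAT2, MVK, PMVK, FDPS, LSS, TM7SF2, LBR, NSDHL and ACLY turned negative with Dox- libraries 1 and 2 left out. FADS1 and FADS2 stayed positive in every alternative. The estimates that changed sign were as follows. In ZNF683 against Mock, scaling gave 0.011 for MVD, 0.025 for DHCR7 and 0.021 for INSIG1. Leaving out single libraries gave -0.095 to 0.0023 for MVD, -0.062 to 0.12 for SQLE, -0.066 to 0.083 for EBP, -0.019 to 0.046 for SC5D, -0.10 to 0.069 for DHCR7, -0.071 to 0.037 for INSIG1 and -0.20 to 0.030 for ACACA. In Dox+ against Dox-, scaling gave -0.21 for HMGCS1, -0.0092 for SQLE, -0.17 for CYP51A1 and -0.16 for MSMO1. Leaving out AL135790.1 gave -0.29 for HMGCS1, -0.089 for SQLE, -0.24 for CYP51A1, -0.24 for MSMO1 and -0.075 for HSD17B7. Leaving out Dox- libraries 1 and 2 gave -0.11 for ACAT2, -0.083 for MVK, -0.16 for PMVK, -0.091 for FDPS, -0.32 for LSS, -0.13 for CYP51A1, -0.19 for TM7SF2, -0.13 for LBR, -0.051 for NSDHL, -0.15 for HSD17B7, -0.13 for DHCR7, -0.030 for SREBF2, -0.21 for SCAP, -0.089 for INSIG2, 0.16 for STARD4, -0.16 for ACLY, -0.080 for ACACA and -0.24 for FASN. Scaling without Dox- library 2 gave 0.027 for MVD, -0.0021 for IDI1, -0.14 for CYP51A1, -0.035 for HSD17B7, -0.077 for SC5D and -0.13 for INSIG2. Leaving out single libraries gave -0.44 to 0.53 for HMGCS1, -0.64 to 0.43 for MVD, -0.085 to 0.45 for SQLE, -0.24 to 0.18 for CYP51A1, -0.27 to 0.47 for MSMO1, -0.11 to 0.41 for HSD17B7, -0.029 to 0.52 for DHCR7 and -0.34 to 0.34 for STARD4. TPM keeps no read number, so the depth behind each value is unknown.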
